A study of Mus musculus with 7 samples.

Results

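The genes described here are 35 members of the hypoxia and glycolysis programme, out of 24421 gene rows in the table of read counts. They were taken by gene symbol from a list chosen with earlier results of these data known, and all 35 symbols had a row. The list holds 14 glycolytic enzymes, from hexokinase to lactate dehydrogenase, and 21 other genes tied to the hypoxia-inducible factor HIF. The latter are transporters and regulators of glucose use, the HIF subunit Hif1a and 2 of its hydroxylases, secreted factors, mitochondrial proteins and other hypoxia-induced genes.

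Polyadenylated RNA was sequenced from 7 mouse tumours at week 4 of an antibody treatment. In 3 mice an antibody against the T cell checkpoint PD-1 was given with anti-KLH, a control antibody (the control group). In 4 mice anti-PD-1 was given with anti-Lair1, which blocks LAIR1, a collagen-binding inhibitory receptor of leukocytes (the anti-LAIR1 group). All 7 mice thus received anti-PD-1, and no untreated tumour was analysed here. The series text describes a pair of models, and the labels do not say from which one these tumours came. One is the lung cancer line 344SQ, derived from mice with K-rasLA1/+ and p53R172H∆g/+ alleles and placed under the skin of 129/Sv mice aged 6 to 8 weeks, of both sexes. The other is a KrasLSL-G12D/p53fl/fl mouse infected through the trachea with Cre adenovirus at 3 to 4 months and treated from 2 months later. For the implanted tumours the doses were 10 mg/kg for anti-LAIR and 8 mg/kg for anti-PD-1. The control mice carry names beginning with LOHM or KWM and the anti-LAIR1 mice names beginning with WTSV, a difference of unstated meaning that cannot be told apart from the treatment. Library totals ran from 9879762 to 26255727 counts, and the 35 genes together took from 0.727% to 0.909% of them. The epithelial gene Epcam was present in every tumour, between 11.9 and 26.6 CPM, and the summed level of 11 epithelial genes overlapped between the groups (4848 to 5977 CPM in controls and 4945 to 5946 CPM with anti-LAIR1). CPM are counts scaled to a common library size after TMM scaling, which evens out differences in library composition. The labels number no replicates and do not say whether the mice were treated in the same round, so the tests measure only the spread between these tumours.

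Cells short of oxygen stabilise HIF, a transcription factor whose alpha subunit is otherwise marked for destruction by prolyl hydroxylases. HIF binds a short DNA core, ACGTG or GCGTG, near its targets and raises glucose uptake, glycolysis, lactate export, angiogenic signals and mitophagy. Many tumours use glycolysis heavily even where oxygen is present, so that the enzymes can be abundant without a shortage of oxygen.

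The comparison asked whether these genes differ when LAIR1 blockade is added to PD-1 blockade. None of the 35 genes passed the test over all genes: of 13545 genes tested, 0 (0%) reached an adjusted p under 0.05 by edgeR's quasi-likelihood test, and 697 an unadjusted one. In the same libraries limma-voom called 0 genes at that threshold, with 977 at an unadjusted p under 0.05, and DESeq2 called 54 (0.388%), among them Ankrd37. Of the 35 genes 34 passed the filter on low counts, the exception being Eno1. Of these 34, 27 had a lower mean with anti-LAIR1 and 7 a higher one, where 50.9% of all genes tested lay below 0. At an unadjusted p under 0.05, 5 were lower (14.7% of 34, against 1.63% of all genes tested) and 0 were higher (against 3.51%). These genes were Ankrd37, Egln1, Slc16a3, Pfkl and Vegfa. The groups did not overlap for 3 of the 34 on the lower side (8.82%, against 2.51% of all genes tested) and for 0 on the higher side (against 3.06%). Because the list was chosen with earlier results of these data known, these shares describe it and do not test it. The median log2 fold change was -0.065 over 13 enzymes and -0.20 over the other 21 genes, beside -0.0028 over all genes tested. Without control replicate 2 the count of 5 became 2, Egln1 and Ankrd37, where 1.12% of all genes tested were lower at that threshold. The median of the 21 genes then became -0.042. By limma-voom 9 genes were lower at an unadjusted p under 0.05 (2.66% of all genes tested were).

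The promoter letters of the genes that reached an unadjusted p under 0.05 are shown to place the HIF core in the genes with the smallest p. For Vegfa the matches are described without the letters. They come from RefSeq windows on GRCm38.p6 that run from 250 bases before a transcript start to 50 bases after it, and 32 of the 35 genes had at least 1 window (52 windows in all). Bases are given 5′ to 3′ on the gene's strand in lower case, with each ACGTG or GCGTG core in capitals, or CACGT or CACGC where the core lies on the opposite strand. Stretches overlapping an annotated exon were cut to at most 30 bases. The starts used for Ankrd37 and Slc16a3 lie inside the outer bounds of the gene, so that their stretches fall within its span.
Ankrd37, chr8:46000057-46000100, minus strand, 250 to 207 bases before the start: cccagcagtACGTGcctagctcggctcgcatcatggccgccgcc
Ankrd37, chr8:45999968-46000035, minus strand, 185 to 118 bases before the start: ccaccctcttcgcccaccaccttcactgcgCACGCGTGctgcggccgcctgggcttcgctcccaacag
Ankrd37, chr8:45999851-45999868, minus strand, last 18 bases before the start: cagtgtttgggtACGTGa
Egln1, chr8:124949346-124949410, minus strand, 156 to 92 bases before the start: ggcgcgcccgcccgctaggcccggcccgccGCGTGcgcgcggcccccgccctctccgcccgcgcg
Egln1, chr8:124949305-124949334, minus strand, 80 to 51 bases before the start: gggccgtggtgtACGTGcagcgcgcgcgga
Slc16a3, chr11:120949010-120949052, plus strand, 57 to 15 bases before the start: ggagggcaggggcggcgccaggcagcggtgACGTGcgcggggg
Slc16a3, chr11:120949053-120949066, plus strand, last 14 bases before the start: ACGTGccgcgcgac
Pfkl, chr10:78009872-78009936, minus strand, 129 to 65 bases before the start: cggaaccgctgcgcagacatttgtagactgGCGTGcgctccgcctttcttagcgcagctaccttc

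Ankrd37 thus held ACGTG at 2 places and an overlapping pair of GCGTG cores on opposite strands, Slc16a3 held ACGTG at 2 places, Egln1 held 1 of each core, and Pfkl held GCGTG only. The first Vegfa window held neither core. Its second window, whose start lies inside the gene, held both within annotated exons. Over all members ACGTG was present, on either strand, in 27 of 52 windows (51.9%) and GCGTG in 28 (53.8%), against 19.6% and 32.4% of all 32851 windows. At least 1 of the cores was present in 18 of 24 windows of the enzymes and in 23 of 28 windows of the other genes (75.0% and 82.1%, against 43.8% of all windows). A match of 5 letters is a description of the sequence and does not show binding, and the windows were not matched for base composition. The genes were listed for their ties to HIF and glycolysis, so the higher shares are no independent result. A gene with several starts counts once per window.

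Ankrd37, which encodes an ankyrin-repeat protein strongly induced in hypoxia (chromosome 8, 45996908 to 46000414, GRCm38), showed the largest difference of the 34 genes. Its level was 22.3, 24.6 and 15.2 CPM in control replicates 1, 2 and 3, and 8.69, 11.2, 10.2 and 10.7 CPM in anti-LAIR1 replicates 1, 2, 3 and 4. Every anti-LAIR1 tumour lay below every control, and the 4 anti-LAIR1 tumours lay close together while the controls spread widely. The means were 20.7 ± 4.93 CPM (SD, n = 3) and 10.2 ± 1.07 CPM (SD, n = 4), which is -1.03 on the log2 scale (SE 0.18, 95% interval from -1.43 to -0.62). Its unadjusted p was 0.000231 and its edgeR adjusted p was 0.540. DESeq2 gave an adjusted p of 0.00123 for Ankrd37, in a result that called 2 genes lower (0.0144% of those it tested), and limma-voom gave 0.321. The fold change lay between -1.21 and -0.89 over all alternatives tried, the smallest being that without control replicate 2.

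**Figure D1:**
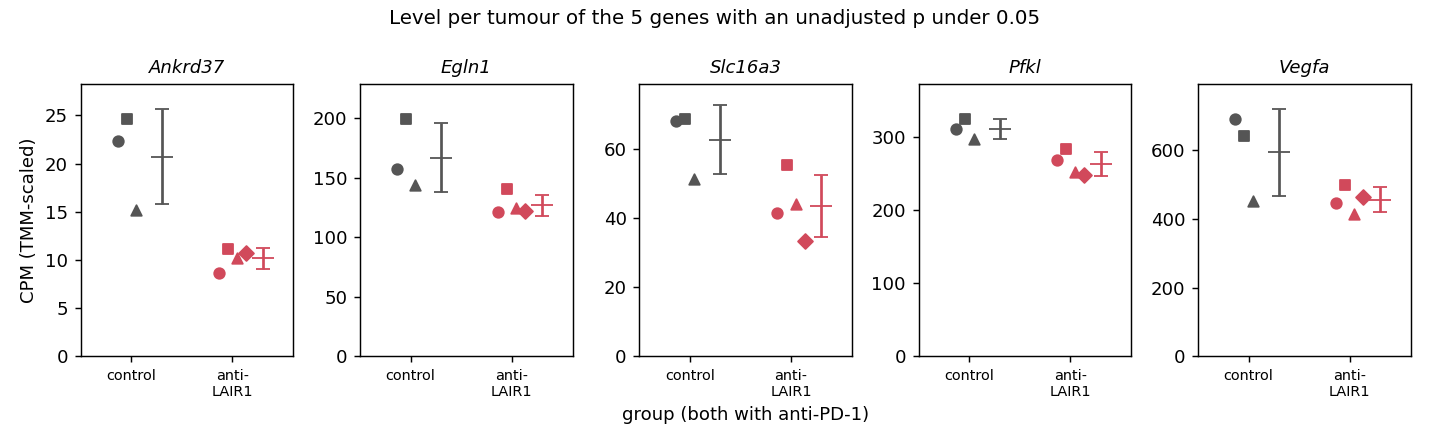
Level in CPM (vertical axis, from 0) of the 5 genes with an unadjusted p under 0.05, by group, with 1 point per tumour and the mean ± SD beside the points; circles, squares, triangles and diamonds are replicates 1, 2, 3 and 4. The groups are separate for Ankrd37, Egln1 and Pfkl and overlap for Slc16a3 and Vegfa.

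Among the HIF subunit and its hydroxylases only Egln1 reached an unadjusted p under 0.05. Egln1, the main prolyl hydroxylase that marks HIF for destruction and is itself a HIF target (chromosome 8, 124908587 to 124949254), was at 158, 199 and 144 CPM in controls 1, 2 and 3 and at 121, 140.2, 124 and 122 CPM with anti-LAIR1. All 4 anti-LAIR1 tumours lay below all controls, by a narrow margin between control 3 and anti-LAIR1 replicate 2. The Egln1 log2 fold change was -0.40 (SE 0.12, edgeR unadjusted p = 0.00702, adjusted p = 0.762), and it was -0.25 without control replicate 2. Egln3, a hydroxylase that hypoxia induces strongly in many cells, was at 20.5, 35.7 and 26.2 CPM in controls and at 30.9, 30.3, 50.5 and 15.3 CPM with anti-LAIR1. Both the highest and the lowest Egln3 level therefore belonged to the anti-LAIR1 group, and its interval was wide, from -0.66 to 1.08 on the log2 scale. Hif1a, the oxygen-regulated subunit whose control is mainly at the protein level, was at 233, 253 and 262 CPM in controls and at 268, 280, 227 and 271 CPM with anti-LAIR1. Its log2 fold change was 0.070 with an interval from -0.14 to 0.28.

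Of the genes for sugar and lactate transport, Slc16a3, the lactate exporter MCT4 (chromosome 11, 120948484 to 120959000), was lower with anti-LAIR1. It was at 68.3, 68.7 and 51.3 CPM in controls 1, 2 and 3 and at 41.5, 55.3, 44.0 and 33.3 CPM in anti-LAIR1 replicates 1 to 4. The groups overlapped through 1 tumour, anti-LAIR1 replicate 2, which lay above control 3. The Slc16a3 log2 fold change was -0.53 (SE 0.17, edgeR unadjusted p = 0.0125, adjusted p = 0.868), and the unadjusted p was 0.0506 without control replicate 2. The related transporter Slc16a1, MCT1, had a log2 fold change of 0.16 (SE 0.18). The log2 ratio of Slc16a3 to Slc16a1 averaged -0.96 ± 0.60 (SD, n = 3) in controls and -1.68 ± 0.41 (SD, n = 4) with anti-LAIR1, with overlapping groups. Slc2a1, the glucose transporter GLUT1, was at 161, 221 and 176 CPM in controls and at 175, 199.6, 214 and 118 CPM with anti-LAIR1. Anti-LAIR1 replicates 1, 2 and 3 thus lay within the control range and replicate 4 lay below it, and the log2 fold change was -0.078 with an interval from -0.53 to 0.38.

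None of the regulators of flux through glycolysis reached an unadjusted p under 0.05. Pfkfb3, which makes the activator of phosphofructokinase, averaged 143 ± 13.1 CPM (SD, n = 3) in controls and 119.6 ± 23.8 CPM (SD, n = 4) with anti-LAIR1. Its lowest level, 85.8 CPM, was in anti-LAIR1 replicate 4. Pfkfb4, the related enzyme, averaged 11.4 ± 2.92 and 11.6 ± 1.74 CPM. Pdk1, a kinase that shuts pyruvate out of the citric acid cycle, was at 92.2, 128 and 89.5 CPM in controls and at 88.9, 99.1, 95.2 and 76.6 CPM with anti-LAIR1. Only control replicate 2 lay above all anti-LAIR1 tumours for Pdk1. The log2 fold changes of Pfkfb3, Pfkfb4 and Pdk1 were -0.25, 0.020 and -0.20, with SEs of 0.16, 0.20 and 0.14.

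**Figure D2:**
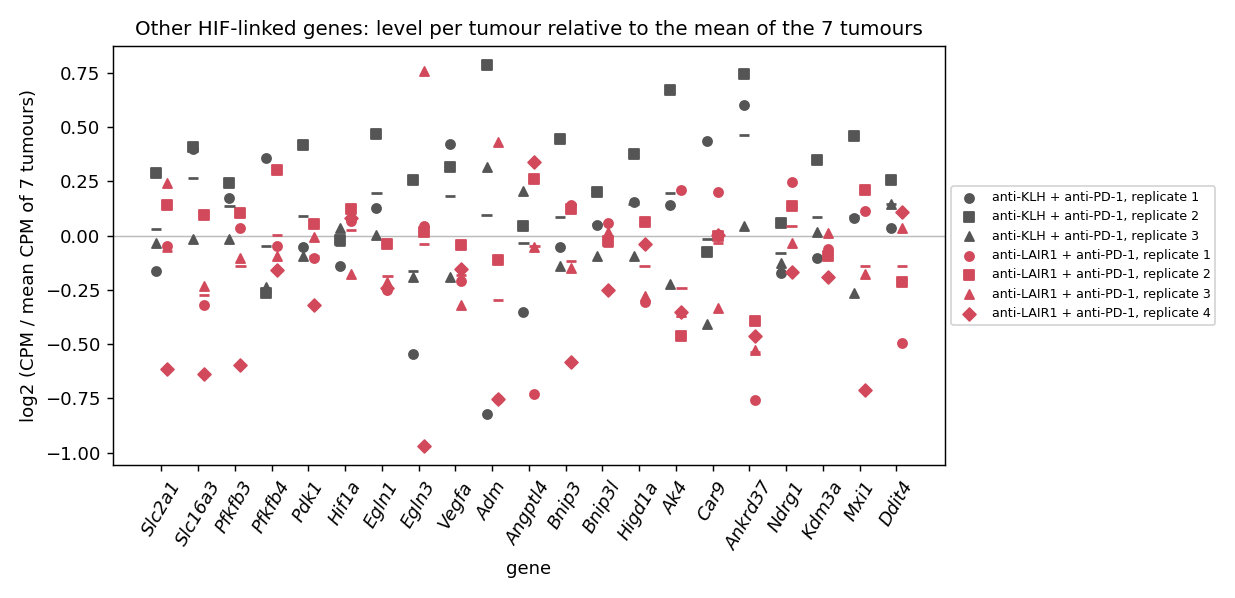
Level of each of the 21 other HIF-linked genes in each tumour as log2 of CPM over the mean of the 7 tumours (vertical axis), grey for controls and red for anti-LAIR1, with marker shapes for replicates and short lines for group means. The grey square, control replicate 2, is highest for 14 of the 21 genes, and the red diamond, anti-LAIR1 replicate 4, is lowest for 9.

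The 3 secreted factors had different patterns. Vegfa, the angiogenic factor that HIF induces (chromosome 17, 46016993 to 46032377), was at 691, 641 and 451 CPM in controls and at 446, 500.4, 413 and 464 CPM with anti-LAIR1. Controls 1 and 2 lay above all anti-LAIR1 tumours, while control 3 lay within their range. The Vegfa log2 fold change was -0.38 (SE 0.14, edgeR unadjusted p = 0.0220, adjusted p = 0.933). Leaving out single tumours gave an unadjusted p of 0.102 for control replicate 1, 0.0833 for control replicate 2 and 0.0567 for anti-LAIR1 replicate 3. Adm, which encodes the vasodilator peptide adrenomedullin, was low and varied more within groups than between them, at 4.71, 14.4 and 10.4 CPM in controls and 4.94, 7.72, 11.2 and 4.94 CPM with anti-LAIR1. Angptl4, an inhibitor of lipoprotein lipase, averaged 25.95 ± 4.94 and 26.4 ± 7.86 CPM, a log2 fold change of 0.033 with an interval from -0.54 to 0.60.

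Genes for mitochondrial proteins were all on the lower side, and none reached an unadjusted p under 0.05. Bnip3 and Bnip3l, receptors that send mitochondria to autophagy, had log2 fold changes of -0.20 (SE 0.20) and -0.10 (SE 0.10). Higd1a, a small protein of the respiratory chain, had -0.29 (SE 0.16). Ak4, a mitochondrial adenylate kinase, was at 10.2, 14.7 and 7.94 CPM in controls and at 10.7, 6.72, 7.25 and 7.27 CPM with anti-LAIR1. Anti-LAIR1 replicate 1 stood apart from the other three for Ak4, and its log2 difference was -0.46 (SE 0.24, edgeR adjusted p = 0.980). It was -0.19 without control replicate 2 and -0.64 without control replicate 3.

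Besides Ankrd37, none of the other induced genes reached an unadjusted p under 0.05. Car9, a cell-surface carbonic anhydrase often used as a hypoxia marker, was at 129.5, 90.9 and 72.2 CPM in controls and at 109.95, 95.8, 75.9 and 95.9 CPM with anti-LAIR1. All 4 anti-LAIR1 tumours lay within the control range, and the log2 fold change of Car9 was -0.052 with an interval from -0.50 to 0.40. Ndrg1, a stress-responsive gene, was the only one of these 6 with a higher mean with anti-LAIR1, 435 ± 55.1 against 397 ± 34.3 CPM. Kdm3a, a histone demethylase, Mxi1, an antagonist of MYC, and Ddit4, an inhibitor of mTOR signalling, had log2 fold changes of -0.18, -0.22 and -0.27, with SEs of 0.11, 0.24 and 0.14. Leaving out control replicate 2 gave -0.037 for Kdm3a and -0.017 for Mxi1, and leaving out anti-LAIR1 replicate 1 gave -0.16 for Ddit4. Ddit4 overlapped between the groups because anti-LAIR1 replicates 3 and 4, at 50.3 and 52.9 CPM, reached the control range of 50.2 to 58.6 CPM.

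The fold changes of the glycolytic enzymes spanned a narrower range, from -0.24 to 0.087, than those of the other genes, from -1.03 to 0.21. Of 13 tested enzymes 11 had a lower mean and 2 a higher mean with anti-LAIR1, and 1 of them, Pfkl, was lower at an unadjusted p under 0.05. No 95% interval of the 13 went below -0.51 or above 0.29 on the log2 scale. Within groups the enzymes also varied less, with a median SD of 0.15 on the log2 CPM scale, against 0.20 for all genes tested and 0.26 for the other 21 genes. Genes of like level were not compared. The lowest tested enzyme, Pfkm, averaged 40.3 CPM with anti-LAIR1, where Adm, among the other genes, averaged 7.20 CPM.

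Hexokinase, which traps glucose in the cell, is encoded here by Hk1 and Hk2. Hk1 averaged 197 ± 7.36 CPM (SD, n = 3) in controls and 209 ± 19.9 CPM (SD, n = 4) with anti-LAIR1, and Hk2, the form HIF induces, 142 ± 23.0 and 134 ± 15.99 CPM. Their log2 fold changes were 0.087 (interval from -0.12 to 0.29) and -0.086 (interval from -0.38 to 0.21). The log2 ratio of Hk2 to Hk1 ranged from -0.68 to -0.30 in controls and from -1.05 to -0.30 with anti-LAIR1, so that the balance of both forms overlapped.

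Phosphofructokinase, the committed step, has liver, platelet and muscle subunits, Pfkl, Pfkp and Pfkm. Pfkl (chromosome 10, 77986947 to 78009807) was at 311, 325 and 297 CPM in controls 1, 2 and 3 and at 269, 285, 252 and 249 CPM in anti-LAIR1 replicates 1 to 4. Every anti-LAIR1 tumour lay below every control, and the spread within groups was small. The Pfkl log2 fold change was -0.24 (SE 0.080, edgeR unadjusted p = 0.0146, adjusted p = 0.908), and the unadjusted p was 0.0640 without control replicate 2. Pfkp and Pfkm had log2 fold changes of -0.051 (SE 0.11) and -0.065 (SE 0.12), with overlapping groups. Per kilobase of merged GENCODE exons the median level over the 7 tumours was 42.6 CPM for Pfkl, against 12.8 for Pfkm and 7.90 for Pfkp. Pfkl was the highest also per kilobase of the longest coding transcript, at 76.3 CPM, while the order of Pfkm (14.8) and Pfkp (25.6) was then the opposite.

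**Figure D3:**
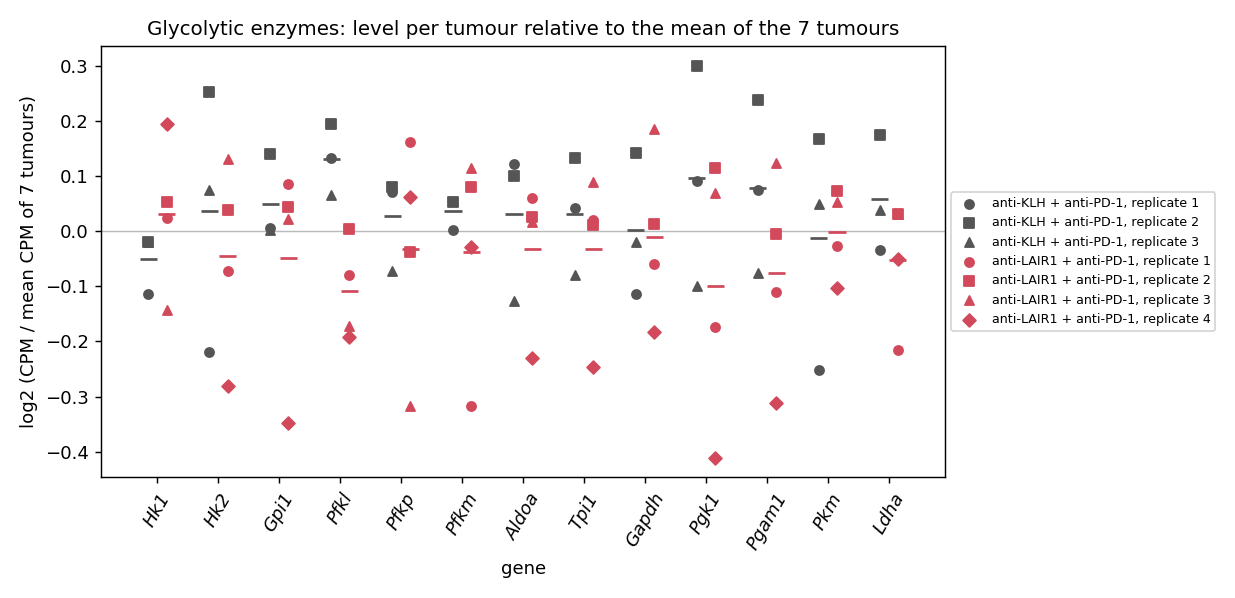
Level of the 13 tested glycolytic enzymes in each tumour as log2 of CPM over the mean of the 7 tumours (vertical axis), grey for controls and red for anti-LAIR1, with marker shapes for replicates and short lines for group means. Pfkl is the one enzyme with separate groups, control replicate 2 (grey square) is highest for 8 enzymes and anti-LAIR1 replicate 4 (red diamond) is lowest for 8.

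The groups overlapped for Aldoa, Tpi1, Gapdh and Gpi1, with log2 fold changes of -0.064, -0.060, -0.012 and -0.090. Aldoa, the main aldolase, was at 939, 925 and 791 CPM in controls and at 899, 878, 873 and 736 CPM with anti-LAIR1. Tpi1, triose phosphate isomerase, averaged 399 ± 29.1 and 383 ± 37.4 CPM, and Gapdh, which makes the first NADH of the pathway, 554 ± 50.4 and 549.7 ± 59.6 CPM. The Gapdh log2 fold change of -0.012 had an interval from -0.25 to 0.23, and its sign was positive in 6 of 17 alternatives. Gpi1, which isomerises glucose phosphate before the phosphofructokinase step, averaged 466 ± 26.04 and 438 ± 57.0 CPM.

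Pgk1, which yields the first ATP and is a classical HIF target, was at 134, 155 and 118 CPM in controls and at 112, 137, 132 and 94.96 CPM with anti-LAIR1. Its groups overlapped, and its log2 fold change of -0.19 (SE 0.14) was the second largest among the enzymes. Pgam1, a mutase, averaged 68.4 ± 7.42 and 61.6 ± 7.73 CPM. Pkm, the pyruvate kinase gene, averaged 1267 ± 183 CPM in controls and 1268 ± 70.4 CPM with anti-LAIR1, with an interval from -0.24 to 0.25. Ldha, which makes lactate, was at 761, 879.6 and 801 CPM in controls and at 671, 797, 797 and 753 CPM with anti-LAIR1. The Ldha log2 fold change was -0.11 (SE 0.093). Its partner Ldhb was rare, between 0.407 and 2.26 CPM, so that the log2 ratio of the pair, from 8.38 to 10.5, rests on few Ldhb counts.

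Eno1, the main enolase gene (chromosome 4, 150236708 to 150248879), held 1 count over all 7 libraries and was not tested. Its near-identical retrotransposed copy, listed as Eno1b, held between 50.9 and 63.4 CPM. Without the counting rule for reads that match several places, the enolase reads cannot be divided between these rows. The Eno1b row had a log2 fold change of -0.061 (SE 0.10).

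**Figure D4:**
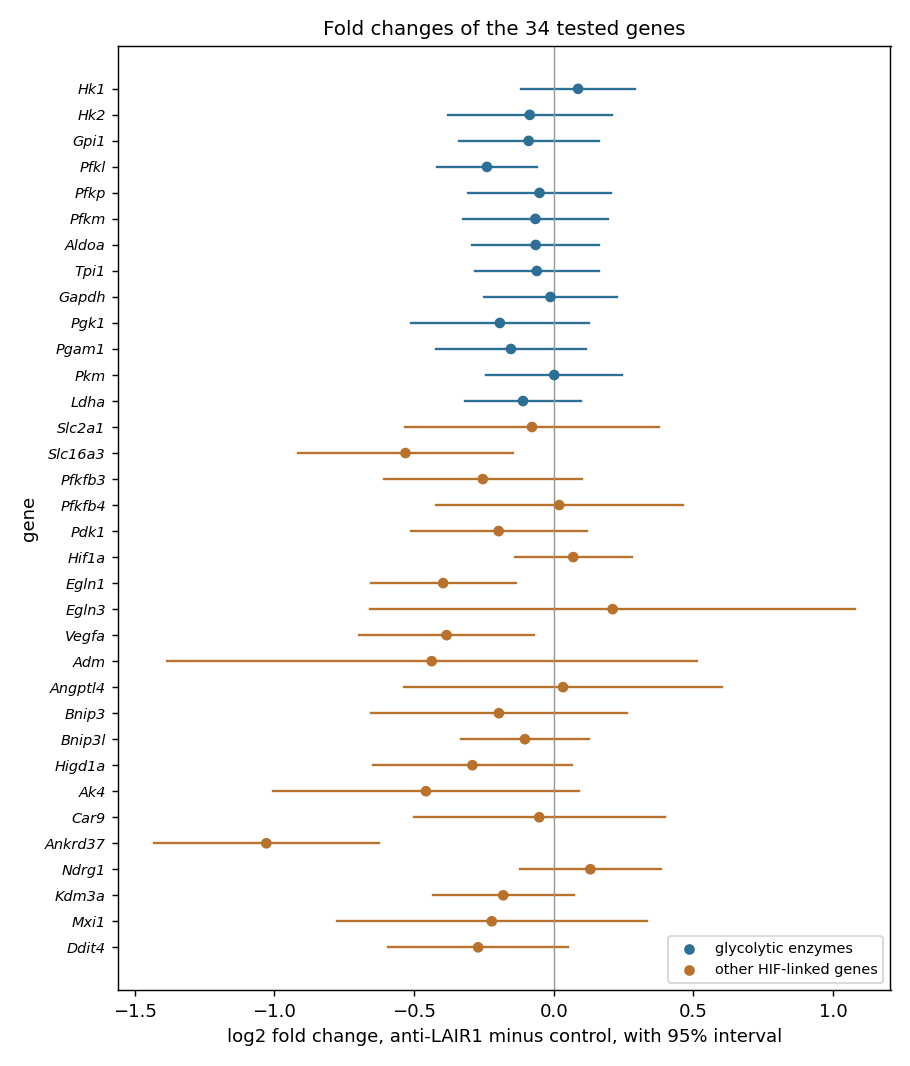
Log2 fold change, anti-LAIR1 minus control, of the 34 tested genes (horizontal axis), with 95% intervals from the edgeR fit, in blue for enzymes and in orange for the other HIF-linked genes. Only Pfkl, Slc16a3, Egln1, Vegfa and Ankrd37 have intervals that leave out 0, and none of the intervals is adjusted for the number of genes.

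Control replicate 2 had the highest level for 8 of 13 enzymes and 14 of 21 other genes, and anti-LAIR1 replicate 4 the lowest for 8 and 9. Control replicate 2 is the only mouse named KWM, controls 1 and 3 being named LOHM, so that the fit without it is also the fit with LOHM controls alone. In that fit the log2 fold changes of Pdk1, Adm and Bnip3l were -0.014, -0.042 and -0.024. After centring each gene on its mean, the median of the 21 genes was 0.34 in control replicate 2 and between -0.076 and 0.056 in the other controls. It was -0.24 in anti-LAIR1 replicate 4 and between -0.081 and 0.079 in the other three. The enzymes followed the same order of extremes, with 0.15 in control replicate 2 and -0.18 in anti-LAIR1 replicate 4. Apart from these tumours the groups overlapped for both sets of genes.

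Marker genes of leukocytes were higher with anti-LAIR1 without overlap of their sums, while 0 genes of any marker list passed edgeR's adjusted test. The summed level of 17 pan-leukocyte genes was between 266.6 and 294.8 CPM in controls and between 356 and 450.3 CPM with anti-LAIR1, and all 17 had a higher mean with anti-LAIR1. The macrophage sum was between 451 and 596 CPM in controls and between 571 and 705 CPM with anti-LAIR1, with overlap. All 12 macrophage genes likewise had a higher mean with anti-LAIR1. The summed level of 19 sarcomere genes was between 16.7 and 18.9 CPM in controls and 137, 20.2, 101.2 and 139 CPM in anti-LAIR1 replicates 1 to 4, with Acta1, the main skeletal muscle actin, at 0 in 2 of the 7 libraries, 1 of each group. Anti-LAIR1 replicate 2 was thus close to the controls. Of these sums the gene Ttn made up 94.6, 8.12, 61.6 and 89.1 CPM in anti-LAIR1 replicates 1 to 4. Ttn was at 2.97, 5.54 and 4.78 CPM in controls 1, 2 and 3. Of the 19 genes 10 did not pass the filter on low counts. Fibroblast sums overlapped, the lowest, 2225 CPM, being that of anti-LAIR1 replicate 4. The sum of 8 adipocyte genes was 122.6 CPM in anti-LAIR1 replicate 2 and between 21.99 and 34.04 CPM in the other 6 tumours. Anti-LAIR1 replicate 2, whose sarcomere sum was close to the controls, had the highest level of its group for Ankrd37, Egln1, Slc16a3, Pfkl and Vegfa. The part of these cells in the results was not tested. Erythroid genes were nearly absent, with 6 of 7 at 0 in every library. In bulk tumours fewer cells of a type and less RNA per cell cannot be told apart. With the leukocyte level as a covariate, 12 of 34 genes lay below 0, and with the sarcomere level 16 of 34, in place of 27. In the same order, the median log2 fold change of all genes tested was -0.0029 and -0.0054. Of all genes tested 2.21% and 0.797% were lower at an unadjusted p under 0.05, against 1.63% without a covariate. Of the 5 genes at an unadjusted p under 0.05, only Ankrd37 stayed under it in both fits, with log2 fold changes of -0.97 with the leukocyte level and -0.89 with the sarcomere level. Its unadjusted p by edgeR was 0.0120 and 0.0109. In the same order Slc16a3 had -0.16 and -0.16, Pfkl -0.17 and -0.13, Egln1 -0.23 and -0.26, and Vegfa -0.47 and -0.25, none of them with an unadjusted p under 0.05. Since leukocyte levels did not overlap between the groups, treatment and leukocyte content cannot be told apart in these tumours. The sarcomere sums did not overlap either. As a mean log2 CPM, the form used as covariate, the sarcomere level overlapped only through anti-LAIR1 replicate 2 (-1.36, against -1.33 to -1.11 in controls). The sarcomere fit thus rests on that tumour to separate treatment from the sarcomere level. The mean also gives equal weight to all 19 genes, including the 10 that did not pass the filter on low counts.

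**Figure D5:**
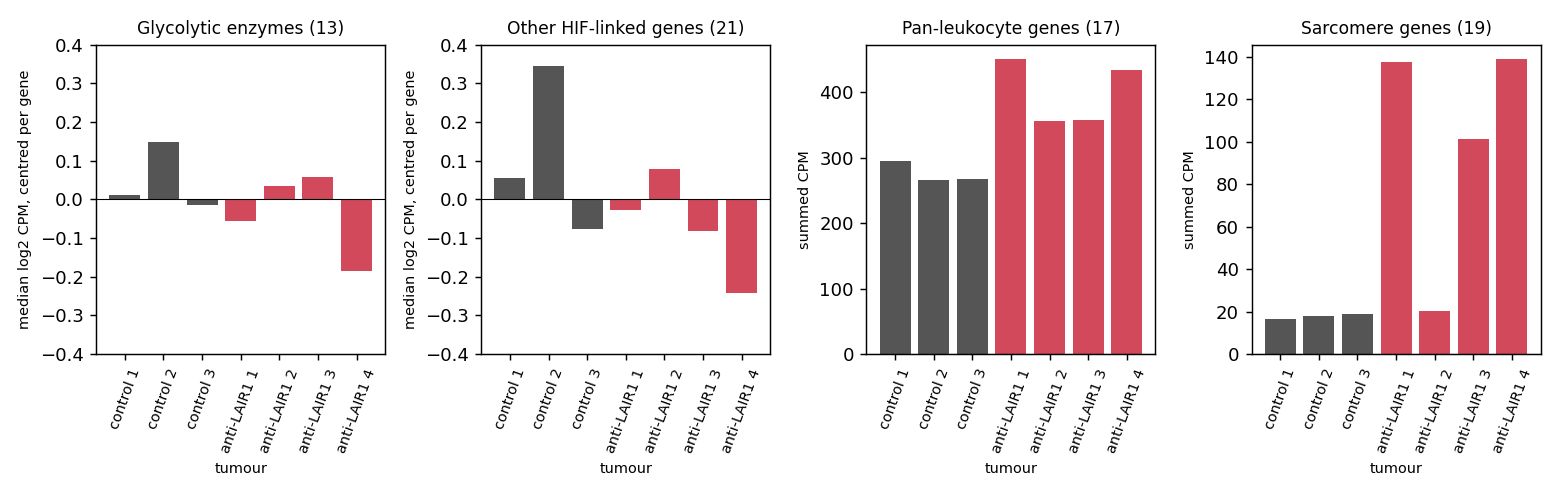
Per tumour, from left to right, the median centred log2 CPM of the 13 enzymes and of the 21 other HIF-linked genes, and the summed CPM of 17 pan-leukocyte and 19 sarcomere genes, in grey for controls and red for anti-LAIR1. Control replicate 2 and anti-LAIR1 replicate 4 are the extremes of both gene sets, and the leukocyte sums of the groups do not overlap.

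Further hypoxia-induced genes lay mostly on the lower side, and a mixed list of further glycolysis and gluconeogenesis genes mostly on the higher side. Of 35 tested further hypoxia-induced genes 26 were lower and 9 higher, with a median of -0.15, and 4 were lower at an unadjusted p under 0.05 (11.4%, against 1.63% of all genes tested) with 0 passing the adjusted test. The lists of further genes were likewise chosen with earlier results of these data known, so their shares are descriptions only. Cited2, a HIF-induced inhibitor of HIF activity, was at 125.2, 162 and 138 CPM in controls and at 77.9, 124.7, 107 and 75.8 CPM with anti-LAIR1, a log2 fold change of -0.56 (SE 0.18). Pygl, a glycogen phosphorylase, and Fam162a, a mitochondrial protein induced by hypoxia, had -0.46 (SE 0.16) and -0.37 (SE 0.13), and the groups did not overlap for either or for Cited2. The edgeR adjusted p of these 3 genes lay between 0.900 and 0.933.

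Of 20 tested further genes of glycolysis and gluconeogenesis 7 were lower and 13 higher, with a median of 0.14, where 50.9% of all genes tested lay below 0. The 13 included the gluconeogenesis genes Fbp2 (0.46) and Pck2 (0.26), and the 7 included Pfkfb1 (-0.40), so the count is not one of glycolytic enzymes alone. Pklr, the liver and red cell pyruvate kinase, had the smallest p, averaging 11.7 ± 1.18 CPM in controls and 14.9 ± 1.07 CPM after LAIR1 blockade (log2 fold change 0.35, SE 0.14, edgeR adjusted p = 0.938). Next came Hkdc1, a hexokinase-like gene, with 1.12 (SE 0.55), and Pfkfb2, with -0.23 (SE 0.12). Of 16 tested genes for lactate, proton and pyruvate handling 8 were lower and 8 higher, with a median of 0.0089 and 0 at an unadjusted p under 0.05. Those with the smallest p were Pdk3, Mpc1 and Bsg, at -0.20, 0.40 and -0.12.

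The HIF machinery, 13 genes, had a median of -0.0021, with 8 lower and 5 higher. Epas1, which encodes the second HIF alpha subunit and is abundant in endothelium, was at 42.1, 45.7 and 40.0 CPM in controls and at 48.0, 67.2, 47.8 and 85.9 CPM with anti-LAIR1. Every anti-LAIR1 tumour lay above every control, and the difference was 0.55 on the log2 scale (SE 0.21, edgeR adjusted p = 0.935). Hif1an, the asparagine hydroxylase that limits HIF activity, and Arnt2 followed with -0.13 (SE 0.081) and 0.62 (SE 0.40). Arnt2 was low, averaging 0.890 CPM in controls and 1.38 CPM with anti-LAIR1, with overlapping groups. Among 13 genes of VEGF receptors and endothelium 11 were higher and 2 lower, with a median of 0.31. Of them 4 were higher at an unadjusted p under 0.05 by edgeR, where 3.51% of all genes tested were. Their summed level overlapped, between 523 and 531 CPM in controls and between 469 and 652 CPM with anti-LAIR1. Anti-LAIR1 replicate 4 had the lowest sum, below every control. Vwf, Angpt2 and Pecam1 had the smallest p, with log2 fold changes of 0.41 (SE 0.13), 0.95 (SE 0.33) and 0.49 (SE 0.17). Their edgeR adjusted p lay between 0.868 and 0.933, and the groups overlapped for Angpt2 and Pecam1 but not for Vwf. The VEGF receptor genes Kdr and Flt1 had 0.31 (SE 0.17) and 0.11 (SE 0.24), while the ligand Vegfa was on the lower side.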

How the data were processed

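The authors deposited raw read counts per gene symbol, 1 column per mouse. Per the submitters' processing notes the tools were STAR 2.7.6 and Trim Galore for the reads, featureCounts 2.0.1 for counting and edgeR 3.40.1, on mm10. Annotation, strand setting and the rule for multiple matches: not given in the sources used here, so genes with near-identical copies (Eno1, Gapdh, Aldoa, Pgam1, Ldha) carry uncertain counts. No row lacked a gene name.

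Here counts were fitted over all genes in R 4.3.3 with edgeR 4.0.16 (filterByExpr with a minimum count of 10, TMM, robust quasi-likelihood test, Benjamini-Hochberg adjustment, threshold 0.05). Standard errors are the fold change over the root of F, and intervals are at 95%. Log2 CPM used a prior count of 2. DESeq2 1.42.0 and limma 3.58.1 were alternatives. The test was tested on simulated data. Per library 3 counts are worth 0.119 to 0.305 CPM, for counting error only. Members and lists were chosen with earlier results of these data known. Named genes were all members and, per pathway list, those with the 3 smallest p. Slc16a1 and Ldhb are isozyme partners, and Kdr and Flt1 were added after their values were seen. Elob and Eloc were matched through older symbols. Ly6g had no row. Coordinates and promoters come from RefSeq (GRCm38), exon lengths from GENCODE M21. Figures used matplotlib 3.10.9.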

Additional observations from a re-analysis of the deposited data

Results flagged for a closer look

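In the anti-LAIR1 group of 4 tumours, 3 of the 35 genes had 1 tumour far from the others, by the ratio of its gap to the whole range against a critical value of 0.829, which chance passes in about 1 of 20 groups. Gpi1 was at 354 CPM in anti-LAIR1 replicate 4, with the nearest tumour at 457 CPM (ratio 0.837). Aldoa was at 736 CPM in the same tumour, with the nearest at 873 CPM (ratio 0.838). Ak4 was at 10.7 CPM in anti-LAIR1 replicate 1, with the nearest at 7.27 CPM (ratio 0.864).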

How the results depend on the processing

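No paired analysis was made, since each tumour came from a different mouse and the labels link no control mouse to an anti-LAIR1 mouse. Over 17 alternatives, Pfkl, Slc16a3, Egln1, Vegfa, Higd1a, Ak4, Ankrd37 and Ddit4 stayed on the lower side and Ndrg1 on the higher side. DESeq2 called 54 genes and gave -1.03 for Ankrd37, past its threshold. Members at an unadjusted p under 0.05 numbered 9 with limma-voom and 1 with the sarcomere level as covariate. With the leukocyte level they numbered 3, where Slc2a1 (0.60) and Egln3 (1.38) were higher. In these fits, in that order, 2.66%, 0.797% and 2.21% of all genes tested were lower at that threshold, against 1.63% in the main fit. The shares that were higher were not counted for these fits. Leaving out single tumours gave 2 to 7 such members, all lower, where 1.12% to 2.21% of all genes tested were lower. The same fits gave 0 to 3 genes called (3 without anti-LAIR1 replicate 2). Their medians were -0.12 to -0.016 for enzymes and -0.29 to -0.042 for the other genes. With the leukocyte level these medians were 0.16 and 0.044.

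Signs turned as follows. Library totals gave Gapdh 0.015. limma-voom gave Pkm -0.058, Angptl4 -0.018 and Car9 0.018, and thinning gave Angptl4 -0.019. The sarcomere covariate gave Hk2 0.016, Gpi1 0.030, Pfkm 0.035, Aldoa 0.026, Tpi1 0.018, Gapdh 0.041, Pgk1 0.047, Slc2a1 0.17, Pfkfb3 0.0096, Bnip3 0.057 and Mxi1 0.14. The leukocyte covariate gave Hk1 -0.088, Hk2 0.31, Gpi1 0.17, Pfkm 0.11, Aldoa 0.074, Tpi1 0.16, Gapdh 0.29, Pgk1 0.22, Pgam1 0.17, Ldha 0.041, Slc2a1 0.60, Pfkfb3 0.10, Pdk1 0.16, Hif1a -0.019, Adm 0.80, Bnip3 0.23, Bnip3l 0.077, Kdm3a 0.044 and Mxi1 0.27. Leaving out single tumours moved Pkm between -0.11 and 0.095, Angptl4 between -0.12 and 0.22, Car9 between -0.23 and 0.21, Hk2 between -0.21 and 0.029, Gapdh between -0.082 and 0.062, Slc2a1 between -0.18 and 0.070, Pfkfb4 between -0.089 and 0.26, Bnip3 between -0.31 and 0.0079, Pfkm between -0.12 and 0.022, Pfkp between -0.11 and 0.035, Egln3 between -0.10 and 0.45 and Tpi1 between -0.12 and 0.0031. The cause was not tested. With 3 and 4 tumours a group, intervals as wide as that of Egln3 leave moderate differences undetectable.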
